A study of Mus musculus with 18 samples.

Results

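The 36 genes described here are markers of the cells that surround or precede projection neurons in the embryonic mouse cortex. They were chosen by name from textbook marker genes, with earlier results of these data known. Matched to the gene symbols of the count files, 36 of 36 were found among 24035 named genes. They fall into 9 classes, namely radial glia, intermediate progenitors, dividing cells, astrocytes, the oligodendrocyte lineage, microglia, vessels, interneurons and haem synthesis. Interneurons are themselves neurons, so for that class the label non-neuronal does not hold.

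Cortical neurons of C57BL/6 mouse embryos were compared in 3 genotypes, which express MTOR with the amino acid change L2427P, MTOR with the change C1483Y, or WT MTOR. Embryos were electroporated in utero on embryonic day 14 to bring a construct into cortical cells, and flow cytometry on embryonic day 18 collected the neurons that carried it. Each genotype has 3 libraries of ribosome footprints, the mRNA stretches that ribosomes protect from RNase I, and 3 libraries of heat-fragmented mRNA. All groups, WT included, carry an electroporated construct, and the labels give neither the promoter that drives it, nor the fluorescent sort marker, nor the number of embryos pooled. Nothing states that the libraries of a group come from separate animals, so p-values measure the spread between these libraries, which may be technical.

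In the embryonic cortex, radial glia divide at the ventricle and give rise to intermediate progenitors, which divide again to produce excitatory projection neurons. Electroporation reaches the cells that line the ventricle, so the descendants that carry a construct are mostly projection neurons, with radial glia and intermediate progenitors among their recent ancestors. Interneurons migrate in from the ventral forebrain, microglia come from the yolk sac, and vessel cells are of mesodermal origin or, for some pericytes, of the neural crest. Astrocytes and mature oligodendrocytes appear mainly around and after birth.

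Markers of progenitors were present in footprints and mRNA of the sorted cells, though not every gene in every library. Vessel markers were at or near 0 in most libraries. Their highest sums were 35.8 and 38.4 CPM, in the mRNA of L2427P replicates 1 and 2. The 3 most regularly found markers were Vim, Fabp7 and Slc1a3, which are radial glia genes and had more than 10 counts in every library used. At the other end, Cldn5, the tight junction protein of brain endothelium, had a count of 0 in every footprint library. Nes, Eomes, Mki67 and Ccnd2 had more than 10 counts in every footprint library used, but not in every mRNA library. Most of the other markers were found in some libraries and were at 0 in replicates of the same group, as the map of levels shows. The progenitor genes Hes1, Hes5, Pax6 and Btg2 were among them. No marker differed between genotypes past the threshold by edgeR's quasi-likelihood test, and by the same test no marker differed between footprints and mRNA, where 2.79% of all genes did. By an exact permutation test that was added after the data were examined, 6 of 28 markers differed between footprints and mRNA, against 7.17% of all genes.

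**Figure D1:**
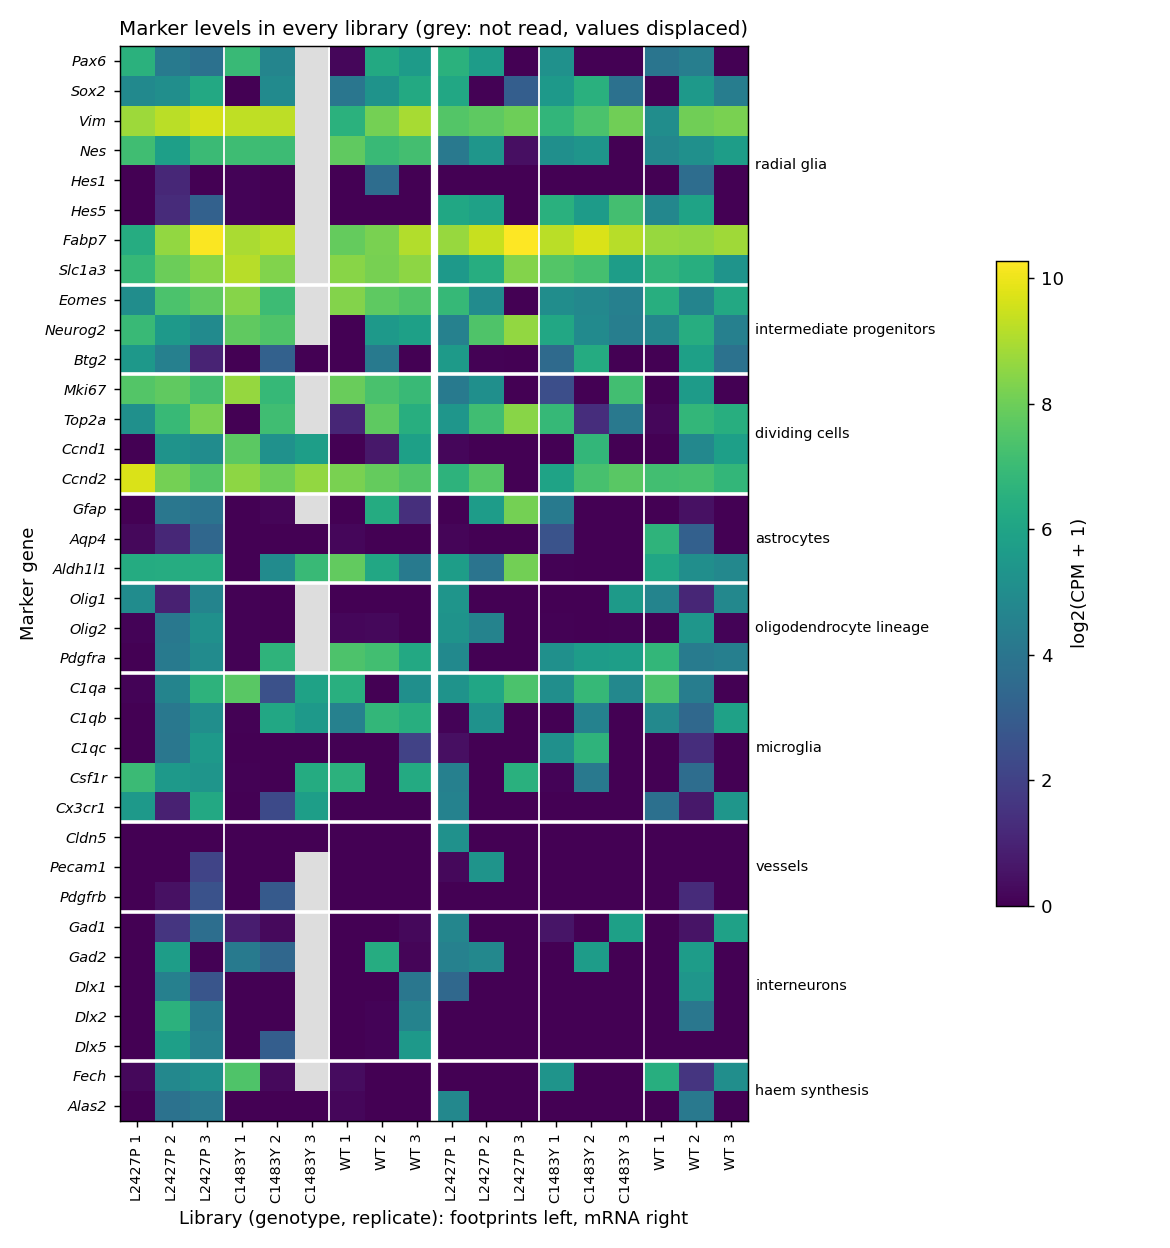
Level of each of the 36 markers (rows, grouped by class) in each library (columns), as log2(CPM + 1), where CPM is counts per 1000000 counts on named genes, with footprints left of the thick line and mRNA right of it. Vim, Fabp7 and Slc1a3 are bright in every column that was read, vessel markers are dark in nearly every column, and most other rows switch between bright and dark within a group. Grey cells belong to footprint library C1483Y replicate 3 and were not read.

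Total counts on named genes ran between 7695442 and 34094913 in the footprint libraries used, with 6112 to 10941 genes found, and between 18627076 and 53283035 in mRNA, with 3173 to 11661 genes found. In footprint library C1483Y replicate 3 the values are displaced against the gene names after position 5400 of the file, and 12 of the markers lie before that point. It entered no test other than an alternative fit with the file as deposited, and its values are given below for these 12 markers and stand last among the C1483Y values. Abundant genes were missing from some libraries. Among the 5000 most abundant, 51.6% were at 0 in the mRNA of L2427P replicate 3 and 23.2% in that of C1483Y replicate 3. The 16 genes of projection neurons taken as a check of the sorted cell type (Tbr1, Neurod2, Tubb3 and others) summed to 9781 to 13549 CPM in footprints and 5378 to 8276 CPM in mRNA. CPM is taken over the counts on named genes and is not scaled by gene length, so levels of different genes are not compared.

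Most values of the markers in single libraries were either 0 or above 100 counts. Of 288 footprint values (36 genes in 8 libraries), 90 were at 0, 30 at 1 to 10 counts, 13 at 11 to 100 counts and 155 above 100 counts. Of 324 mRNA values (36 genes in 9 libraries), 124 were at 0, 26 at 1 to 10 counts, 10 at 11 to 100 counts and 164 above 100 counts. The share at 0 was 31.2% in footprints and 38.3% in mRNA for the markers. It was 9.38% and 15.3% for the 16 projection neuron genes and 7.46% and 12.5% for the 5000 most abundant genes. Those 5000 genes were picked by their mean level in these same libraries, which itself keeps their share at 0 low. No set of genes with levels like those of the markers was compared. A count of 0 allows up to 3 counts, which is 0.0880 to 0.390 CPM in footprints and 0.0563 to 0.161 CPM in mRNA. These limits cover counting error only, because the labels mention no molecular identifiers and amplified copies of a molecule cannot be told apart. In footprint library WT replicate 3 every count is a multiple of 3, so its depth may be overstated. In footprint library C1483Y replicate 3, 97.7% of the counts above 0 are multiples of 4, against 18.1% to 24.1% in the other libraries. Its counts may thus be overstated as well.

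**Figure D2:**
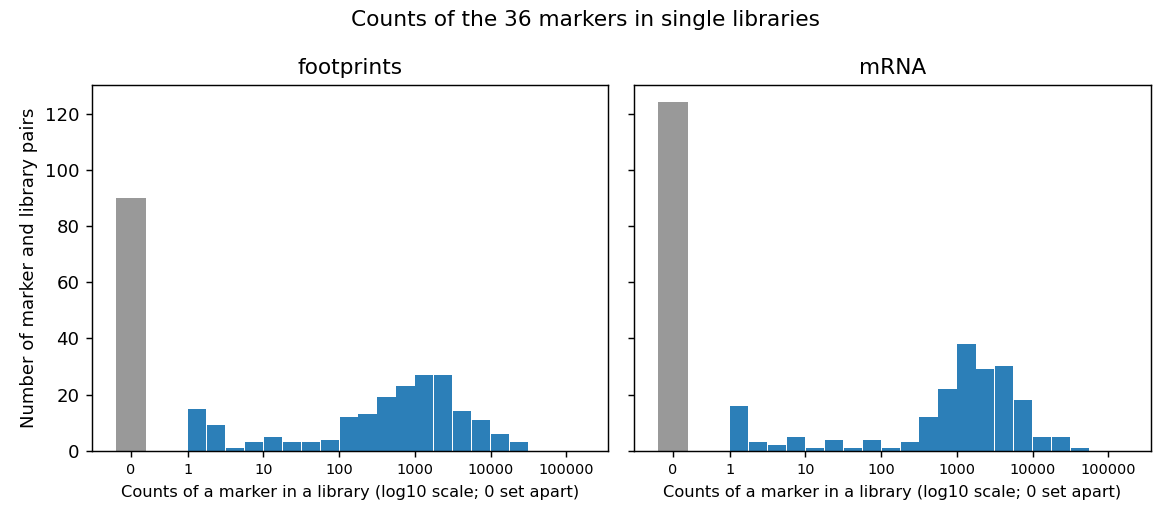
Number of marker and library pairs (vertical axis) by the count of the marker in that library (horizontal axis, log10 scale, with 0 set apart in grey), for 8 footprint libraries on the left and 9 mRNA libraries on the right. The 90 footprint values and 124 mRNA values at 0 stand apart from a broad group above 100 counts, and few values lie between 11 and 100 counts.

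How many markers a library held followed how many genes it held. The footprint libraries had 16, 31 and 33 markers with more than 10 counts in L2427P, 14 and 21 in C1483Y and 13, 18 and 22 in WT. The mRNA libraries had 26, 18 and 10 in L2427P, 20, 18 and 14 in C1483Y and 17, 33 and 18 in WT. Footprint library L2427P replicate 3 had 33 markers among 10874 genes, L2427P replicate 2 had 31 among 10941 genes, and mRNA library WT replicate 2 had 33 among 11661 genes. The lowest number, 10, belonged to mRNA library L2427P replicate 3 with 3173 genes. The part of this in the differences between groups below was not tested.

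**Figure D3:**
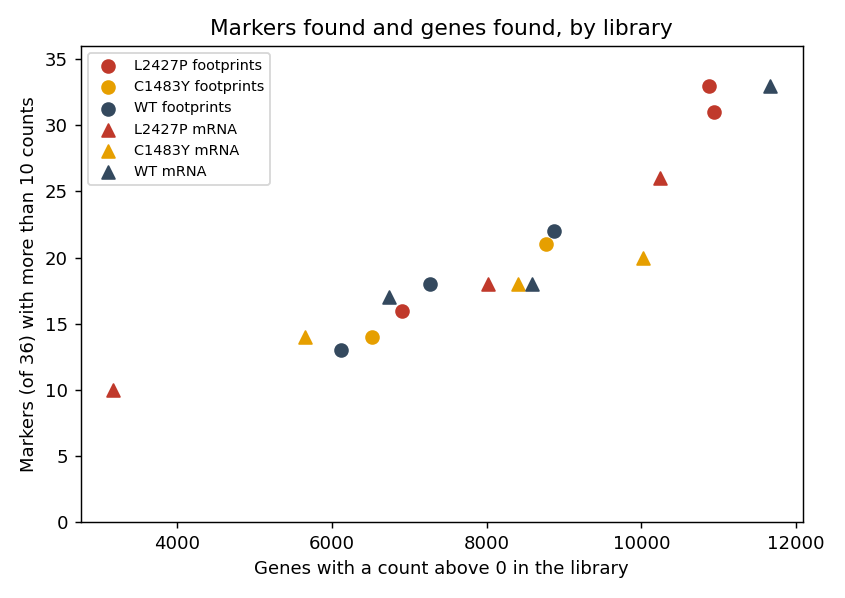
Number of the 36 markers with more than 10 counts (vertical axis) against the number of genes with a count above 0 (horizontal axis), 1 point per library, with circles for footprints and triangles for mRNA and colours for genotype. Points run from 10 markers at 3173 genes to 33 markers at 11661 genes, and the genotypes are mixed along that course.

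Radial glia markers had the highest summed level of the 9 classes in 16 of 17 libraries used, the exception being footprint library L2427P replicate 1, where the dividing cell markers summed higher. These sums are not scaled by gene length and hold 8 radial glia genes against 2 to 5 genes in the other classes, so the order does not compare expression between classes. Their 8 genes summed to 1595 ± 864 CPM in L2427P footprints (SD, n = 3), 1836 ± 178 CPM in C1483Y footprints (SD, n = 2) and 1226 ± 397 CPM in WT footprints (SD, n = 3). In mRNA they summed to 1280.1 ± 490 CPM in L2427P, 1156 ± 150.5 CPM in C1483Y and 792 ± 155 CPM in WT (SD, n = 3 each). Each C1483Y mRNA library, at 1049 to 1328 CPM, lay above each WT mRNA library, at 616 to 910.2 CPM, while the L2427P libraries, at 889.6 to 1829 CPM, overlapped WT. Such sums were not tested. In bulk samples like these, fewer cells of a type and less RNA per cell cannot be told apart.

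Vim encodes vimentin, the intermediate filament protein of radial glia. Its footprints were at 432, 587 and 788 CPM in L2427P, 632 and 611 CPM in C1483Y and 92.9, 278 and 489 CPM in WT. Vim mRNA was at 185, 210.0 and 257 CPM in L2427P, 106, 162 and 263 CPM in C1483Y and 32.0, 265 and 292 CPM in WT. Vim had 715 to 18792 counts in every library, and the C1483Y footprint libraries lay above the WT ones. The means were 602 ± 178 CPM in L2427P footprints (SD, n = 3), 621 ± 14.5 CPM in C1483Y footprints (SD, n = 2) and 287 ± 198 CPM in WT footprints (SD, n = 3). By edgeR's quasi-likelihood test the Vim footprint difference was 1.19 on the log2 scale for C1483Y against WT (SE 0.71, adjusted p = 0.71) and 1.05 for L2427P against WT (SE 0.65, adjusted p = 0.918). Neither was below the threshold of 0.05.

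Fabp7, the brain fatty acid binding protein of radial glia, had footprints at 81.3, 390.1 and 1200.3 CPM in L2427P, 502 and 593 CPM in C1483Y and 229, 293 and 543 CPM in WT. Fabp7 mRNA was at 412, 679 and 1235 CPM in L2427P, 594, 835 and 577 CPM in C1483Y and 409.8, 387 and 448 CPM in WT. It was the marker with the steadiest mRNA, and each C1483Y mRNA library lay above each WT one. The mRNA difference by edgeR was 0.62 on the log2 scale for C1483Y against WT (SE 0.52, adjusted p = 1) and 0.52 for L2427P against WT (SE 0.51, adjusted p = 1).

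Nes encodes nestin, an intermediate filament protein of neural progenitors, on chromosome 3 from 87971093 to 87980451 (GRCm38.p6, whole gene). Its footprints were at 138, 54.7 and 126 CPM in L2427P, 133 and 129 CPM in C1483Y and 216, 125 and 144 CPM in WT. Nes mRNA was at 16.6, 40.7 and 0.334 CPM in L2427P, 34.1, 40.4 and 0 CPM in C1483Y and 25.7, 34.4 and 51.7 CPM in WT. The lowest footprint library, at 54.7 CPM, was above the highest mRNA library, at 51.7 CPM, and Nes was the 1 marker of 28 tested in both assays with all footprint libraries above all mRNA libraries, against 1.12% of 8876 genes. For 0 of the 28 were all footprint libraries below all mRNA libraries, against 1.31% of the genes. Nes mRNA was at 0 in the C1483Y mRNA library with many missing genes, and at 7 counts in that of L2427P.

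Slc1a3, the glutamate transporter GLAST of radial glia and astrocytes, lies on chromosome 15 from 8634124 to 8710807. Slc1a3 footprints were at 118, 250.1 and 353 CPM in L2427P, 570.1 and 323 CPM in C1483Y and 351, 286 and 368 CPM in WT. In mRNA it was at 46.3, 83.5 and 329.7 CPM in L2427P, 184, 152 and 51.0 CPM in C1483Y and 107, 85.8 and 38.3 CPM in WT. Thus 7 of 8 footprint libraries lay above 8 of 9 mRNA libraries, and the assays overlapped through L2427P replicate 1 in footprints and L2427P replicate 3 in mRNA.

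Hes5, a transcription factor that Notch signalling switches on in progenitors, lies on chromosome 4 from 154960626 to 154962372 and ran the other way. Hes5 footprints were at 0, 1.42 and 8.13 CPM in L2427P, 0.0844 and 0 CPM in C1483Y and 0, 0 and 0 CPM in WT. Hes5 mRNA was at 68.1, 57.3 and 0 CPM in L2427P, 90.2, 48.9 and 145 CPM in C1483Y and 26.3, 60.6 and 0.0209 CPM in WT. Thus 7 of 9 mRNA libraries held 1067 to 4484 counts of Hes5, while 6 of 8 footprint libraries held 0 to 2 counts and the others 15 and 194. Hes1, its close relative and another Notch target, was nearly absent from both assays. Hes1 footprints lay between 0 and 11.7 CPM, with more than 10 counts in 2 of 8 libraries, and Hes1 mRNA lay between 0 and 11.8 CPM, with more than 10 counts in 1 of 9 libraries. The library with Hes1 mRNA was WT replicate 2, at 11.8 CPM.

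Pax6 and Sox2 are transcription factors that define cortical progenitors. Pax6 footprints lay between 0.130 and 125 CPM, with more than 10 counts in 7 of 8 libraries, and Pax6 mRNA lay between 0 and 92.2 CPM, with more than 10 counts in 5 of 9 libraries. Sox2 footprints lay between 0 and 75.2 CPM, with more than 10 counts in 7 of 8 libraries, and Sox2 mRNA lay between 0.0200 and 90.0 CPM, with more than 10 counts in 7 of 9 libraries. Both were at or near 0 in at least 1 library of each assay, and neither passed a test. Pax6 overlaps the annotated Pax6os1 and Elp4, and Sox2 lies inside Sox2ot. The strand setting of the counting is not given in the sources used here, so reads of these overlapping genes cannot be told apart.

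Intermediate progenitor markers were found in footprints of every library and in mRNA of every library. Their 3 genes summed to 225 ± 24.6 CPM in L2427P footprints (SD, n = 3), 435 ± 172 CPM in C1483Y footprints (SD, n = 2) and 276 ± 49.2 CPM in WT footprints (SD, n = 3). In mRNA the sums were 261 ± 115 CPM in L2427P, 95.8 ± 48.1 CPM in C1483Y and 127 ± 31.1 CPM in WT (SD, n = 3 each). Each L2427P mRNA library, at 188 CPM or more, lay above each C1483Y mRNA library, at most 134 CPM, and above each WT mRNA library, at most 163 CPM. The highest L2427P sum, 394 CPM, rested on Neurog2 alone in replicate 3, where Eomes and Btg2 had a count of 0. In replicate 1 Eomes made the largest part, and in replicate 2 Neurog2 did. Mean mRNA in L2427P and WT was 49.5 and 60.7 CPM for Eomes and 15.9 and 23.2 CPM for Btg2. It was 196 and 43.5 CPM for Neurog2. The order of these sums was not tested.

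Eomes (Tbr2), the transcription factor that marks intermediate progenitors, lies on chromosome 9 from 118478186 to 118486132. Eomes footprints were at 31.5, 162 and 217 CPM in L2427P, 342 and 131 CPM in C1483Y and 329, 208 and 175 CPM in WT. Eomes mRNA was at 118, 30.1 and 0 CPM in L2427P, 31.7, 26.8 and 21.5 CPM in C1483Y and 85.4, 23.8 and 72.8 CPM in WT. All but 1 of the footprint libraries lay above the highest mRNA library, which was L2427P replicate 1 at 118 CPM.

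Neurog2 is a proneural transcription factor of progenitors that make excitatory neurons. Its footprints were at 123, 45.5 and 29.0 CPM in L2427P, 214 and 174 CPM in C1483Y and 0, 44.4 and 55.5 CPM in WT. Neurog2 mRNA was at 21.8, 173 and 394 CPM in L2427P, 69.6, 28.8 and 20.2 CPM in C1483Y and 25.5, 83.6 and 21.5 CPM in WT. The C1483Y footprint libraries lay above those of both other genotypes, and WT replicate 1 had none. The footprint difference by edgeR was 2.66 on the log2 scale for C1483Y against WT (SE 2.70, adjusted p = 0.947) and -1.62 for L2427P against C1483Y (SE 2.65, adjusted p = 1). Btg2, an antiproliferative gene that progenitors switch on before neurogenic divisions and that neurons also induce with activity, had footprints between 0 and 43.8 CPM, with more than 10 counts in 5 of 9 libraries. Btg2 mRNA lay between 0 and 78.3 CPM, with more than 10 counts in 5 of 9 libraries.

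Markers of dividing cells were present although the sorted cells are labelled as neurons. Their 4 genes summed to 782 ± 226 CPM in L2427P footprints (SD, n = 3), 759.7 ± 306 CPM in C1483Y footprints (SD, n = 2) and 525 ± 78.7 CPM in WT footprints (SD, n = 3). In mRNA they summed to 289.6 ± 114 CPM in L2427P, 271 ± 89.3 CPM in C1483Y and 242 ± 97.4 CPM in WT (SD, n = 3 each). Each L2427P footprint library, at 651 CPM or more, lay above each WT footprint library, at most 599 CPM. The C1483Y footprint libraries, at 976 and 543 CPM, overlapped both, and the groups overlapped in mRNA. The order of these sums was not tested.

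Mki67 encodes the Ki-67 protein of proliferating cells and lies on chromosome 7 from 135689784 to 135716450. Footprints of Mki67 were at 182, 218 and 148 CPM in L2427P, 405 and 116 CPM in C1483Y and 241, 160.0 and 124 CPM in WT. Mki67 mRNA was at 17.6, 33.5 and 0 CPM in L2427P, 4.61, 0 and 144 CPM in C1483Y and 0, 48.1 and 0.0209 CPM in WT. Mki67 had 1249 to 9604 counts in the 8 footprint libraries, while 4 of 9 mRNA libraries had 0 or 1 count. The mRNA of C1483Y replicate 3, at 144 CPM, was the exception, within the range of the footprint libraries.

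Ccnd2 encodes cyclin D2, which drives entry into the cell cycle and is handed down to the self-renewing daughter of radial glia, on chromosome 6 from 127125162 to 127152188. Ccnd2 footprints were at 826, 277 and 181 CPM in L2427P, 366, 253 and 387 CPM in C1483Y and 291, 227 and 176 CPM in WT. Ccnd2 mRNA was at 99.0, 188 and 0 CPM in L2427P, 61.1, 156 and 199 CPM in C1483Y and 141, 151 and 109 CPM in WT. The highest footprint value was that of L2427P replicate 1, and Ccnd2 mRNA had a count of 0 in L2427P replicate 3. Ccnd2 overlaps the annotated noncoding gene 9330179D12Rik, and with the strand setting not given their reads cannot be told apart.

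Top2a, the DNA topoisomerase of dividing cells, had footprints between 0 and 291 CPM, with more than 10 counts in 6 of 8 libraries. Top2a mRNA lay between 0.140 and 350.3 CPM, with more than 10 counts in 8 of 9 libraries. Ccnd1, cyclin D1, was at 0, 38.0 and 30.7 CPM in L2427P, 205, 36.2 and 52.7 CPM in C1483Y and 0, 0.571 and 56.1 CPM in WT in footprints. Ccnd1 mRNA lay between 0 and 112 CPM, with more than 10 counts in 3 of 9 libraries. Both genes were at or near 0 in some libraries of each assay and above 50 CPM in others.

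Of the astrocyte markers, Aldh1l1, a folate enzyme of astrocytes that radial glia also express, had more than 10 counts in 8 of 9 footprint libraries and 6 of 9 mRNA libraries. Aldh1l1 footprints were at 79.1, 80.8 and 80.2 CPM in L2427P, 0, 29.9 and 125 CPM in C1483Y and 222, 69.6 and 17.3 CPM in WT. Aldh1l1 mRNA was at 52.0, 14.7 and 271 CPM in L2427P, 0.0402, 0 and 0 CPM in C1483Y and 66.9, 32.3 and 27.1 CPM in WT. In mRNA it was at 0 to 2 counts in the 3 C1483Y libraries and at 273 counts or more in every library of L2427P and WT. In footprints the C1483Y libraries did not share that pattern, because replicate 3, at 125 CPM, lay above 5 of the 6 libraries of the other genotypes. By edgeR the mRNA difference was -11.19 on the log2 scale for C1483Y against WT (SE 5.09, adjusted p = 1) and 12.05 for L2427P against C1483Y (SE 5.24, adjusted p = 1). These fitted values depend on how counts near 0 are handled and are no measure of size.

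Gfap, the intermediate filament protein of mature astrocytes, had footprints between 0 and 78.9 CPM, with more than 10 counts in 4 of 8 libraries. Gfap mRNA lay between 0 and 281 CPM, with more than 10 counts in 4 of 9 libraries, with the highest value in L2427P replicate 3. Aqp4, the water channel of astrocyte endfeet, was at 0.149, 1.23 and 9.81 CPM in L2427P, 0, 0 and 0 CPM in C1483Y and 0.130, 0 and 0 CPM in WT in footprints. Aqp4 mRNA was at 0.113, 0 and 0 CPM in L2427P, 5.13, 0.0196 and 0 CPM in C1483Y and 101, 7.81 and 0 CPM in WT. Its footprints lay above WT in all 3 L2427P libraries, but at 2 and 13 counts in the lower 2 of them. The mRNA ran from 0 to 5056 counts within WT. Aldh1l1, Gfap and Aqp4 together summed to 0 to 222 CPM in footprints and 0 to 552 CPM in mRNA. The 7 further astrocyte markers examined summed to 499 to 1652 CPM in footprints and 91.3 to 875 CPM in mRNA.

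The oligodendrocyte lineage markers differed among themselves. Pdgfra, the growth factor receptor of oligodendrocyte precursors, had footprints at 0, 17.2 and 30.3 CPM in L2427P, 0.0422 and 102 CPM in C1483Y and 166, 141 and 72.3 CPM in WT. Pdgfra mRNA was at 28.0, 0 and 0 CPM in L2427P, 34.9, 50.5 and 53.4 CPM in C1483Y and 109, 18.1 and 20.3 CPM in WT. Each L2427P footprint library lay below each WT one, and each L2427P mRNA library lay below each C1483Y one. Olig1, a transcription factor of the lineage, had footprints at 31.2, 0.948 and 23.8 CPM in L2427P, 0.0422 and 0 CPM in C1483Y and 0, 0 and 0 CPM in WT, so that the L2427P libraries held 10 to 567 counts and the others 0 or 1. Olig1 mRNA was at 40.0, 0 and 0 CPM in L2427P, 0, 0 and 46.9 CPM in C1483Y and 23.6, 1.13 and 27.0 CPM in WT. Olig2, its neighbour on chromosome 16, which cortical progenitors can also express, had footprints between 0 and 35.0 CPM, with more than 10 counts in 2 of 8 libraries. Olig2 mRNA lay between 0 and 41.3 CPM, with more than 10 counts in 3 of 9 libraries.

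At least 1 of the microglia markers was found in every library, although microglia do not descend from electroporated cells. The 5 genes summed to 79.5 to 289 CPM in footprints and 26.4 to 256 CPM in mRNA. The 10 further microglia markers examined were less regular. They summed to 0 to 296 CPM in footprints, with a median of 65.8 CPM, and to 0 to 425 CPM in mRNA, with a median of 76.5 CPM. C1qa, C1qb and C1qc encode the chains of complement C1q and are made together by microglia. All 3 had more than 10 counts in 3 of 8 footprint libraries and in 2 of 9 mRNA libraries. C1qa footprints were at 0.0746, 24.2 and 99.8 CPM in L2427P, 198, 4.91 and 59.2 CPM in C1483Y and 88.4, 0 and 33.3 CPM in WT. C1qb footprints were at 0, 16.3 and 32.4 CPM in L2427P, 0.0422, 70.6 and 45.3 CPM in C1483Y and 22.1, 109.6 and 85.2 CPM in WT. C1qc footprints were at 0, 15.7 and 44.2 CPM in L2427P, 0, 0 and 0 CPM in C1483Y and 0, 0 and 3.08 CPM in WT. The chains thus did not go together from library to library, and 4 of the 5 used footprint libraries without C1qc held C1qa or C1qb at more than 20 CPM. In mRNA, C1qa lay between 0.0209 and 163 CPM, with more than 10 counts in 8 of 9 libraries. C1qb mRNA lay between 0 and 57.2 CPM, with more than 10 counts in 5 of 9 libraries. C1qc mRNA lay between 0 and 100.4 CPM, with more than 10 counts in 4 of 9 libraries, and its highest values were those of C1483Y replicates 2 and 1.

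Csf1r, the receptor on which microglia depend for survival, had footprints at 128, 44.9 and 40.2 CPM in L2427P, 0.0422, 0 and 78.2 CPM in C1483Y and 96.7, 0 and 75.8 CPM in WT. Csf1r mRNA was at 21.5, 0 and 90.2 CPM in L2427P, 0.0603, 16.9 and 0 CPM in C1483Y and 0, 11.6 and 0 CPM in WT. The C1483Y libraries that entered the test held 0 or 1 footprint count, but replicate 3 of that genotype held 1732, within the range of L2427P. By edgeR the footprint difference was -10.96 on the log2 scale for C1483Y against WT (SE 5.54, adjusted p = 0.71) and 11.09 for L2427P against C1483Y (SE 5.57, adjusted p = 0.925). Cx3cr1, the fractalkine receptor of microglia, had footprints at 46.4, 0.948 and 72.6 CPM in L2427P, 0, 3.99 and 53.1 CPM in C1483Y and 0, 0 and 0 CPM in WT. Cx3cr1 mRNA was at 22.3, 0 and 0 CPM in L2427P, 0.0201, 0 and 0 CPM in C1483Y and 12.9, 0.566 and 41.5 CPM in WT. No footprint library of WT held a count of Cx3cr1, and all 3 libraries of L2427P did, at 10 to 1731 counts. Cx3cr1 footprints differed between L2427P and WT with an adjusted p = 0.764 by edgeR.

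Vessel markers were the scarcest class. Cldn5 mRNA reached 35.6 CPM in L2427P replicate 1, was at 1 count in C1483Y replicate 1 and was at 0 in the other libraries. Pecam1, an adhesion protein of endothelium, had footprints between 0 and 3.31 CPM, with more than 10 counts in 1 of 8 libraries. Pecam1 mRNA lay between 0 and 38.4 CPM, with more than 10 counts in 1 of 9 libraries, the highest value being that of L2427P replicate 2. Pdgfrb, the receptor of pericytes, had footprints between 0 and 6.49 CPM, with more than 10 counts in 2 of 8 libraries. Pdgfrb mRNA lay between 0 and 1.37 CPM, with more than 10 counts in 1 of 9 libraries. The summed level of the 3 genes was at most 8.34 CPM in footprints and 38.4 CPM in mRNA. Among the 10 further vessel markers examined, 4 were at 0 in all 8 footprint libraries and 4 in all 9 mRNA libraries. The 10 summed to 0.759 to 78.1 CPM in footprints, with a median of 9.67 CPM, and to 0 to 116 CPM in mRNA, with a median of 1.06 CPM.

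The 5 interneuron markers were patchy as well and summed to 0 to 224 CPM in footprints and 0 to 108 CPM in mRNA. Other genes of the class were found in every library. The 11 further interneuron markers examined summed to 218 to 761 CPM in footprints and 83.3 to 335 CPM in mRNA. Gad1 and Gad2 encode the enzymes that make GABA. Gad1 footprints lay between 0 and 12.3 CPM, with more than 10 counts in 3 of 8 libraries, and Gad1 mRNA lay between 0 and 57.8 CPM, with more than 10 counts in 5 of 9 libraries. Gad2 footprints lay between 0 and 81.2 CPM, with more than 10 counts in 4 of 8 libraries, and Gad2 mRNA lay between 0 and 50.6 CPM, with more than 10 counts in 4 of 9 libraries. Gad2 was at 0 in at least 1 library of 5 of the 6 groups, and Gad1 footprints did not exceed 12.3 CPM in any library. Dlx1, Dlx2 and Dlx5 are homeobox genes of ventral forebrain progenitors and their interneurons. Dlx1 footprints lay between 0 and 21.1 CPM, with more than 10 counts in 3 of 8 libraries, and Dlx1 mRNA lay between 0 and 41.1 CPM, with more than 10 counts in 2 of 9 libraries. Dlx2 footprints lay between 0 and 95.5 CPM, with more than 10 counts in 3 of 8 libraries, and Dlx2 mRNA lay between 0 and 15.9 CPM, with more than 10 counts in 1 of 9 libraries. Dlx5 footprints were at 0, 54.9 and 21.6 CPM in L2427P, 0 and 7.32 CPM in C1483Y and 0, 0.0816 and 44.4 CPM in WT, while Dlx5 mRNA had a count of 0 in all 9 libraries. The Dlx genes were thus found together in footprint libraries L2427P replicates 2 and 3 and WT replicate 3. Gad1 overlaps the annotated Gad1os and Dlx1 overlaps Dlx1as, whose reads cannot be told apart from theirs.

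Of the haem genes, Fech encodes ferrochelatase, the last enzyme of the pathway, which all haem-making cells use. Fech footprints were at 0.149, 26.6 and 35.0 CPM in L2427P, 174 and 0.185 CPM in C1483Y and 0.260, 0 and 0 CPM in WT. Fech mRNA was at 0, 0 and 0 CPM in L2427P, 38.8, 0.0196 and 0 CPM in C1483Y and 86.4, 2.01 and 32.5 CPM in WT. Fech mRNA had a count of 0 in all 3 L2427P libraries, whose floor of 0.0563 to 0.161 CPM covers counting error only. In L2427P replicate 3, 51.6% of the 5000 most abundant genes were at 0 in mRNA. All 3 WT libraries held Fech mRNA, at 85 counts or more. The mRNA difference between L2427P and WT had an adjusted p = 1 by edgeR. In footprints Fech had 0 to 2 counts in WT and 2 to 836 counts in L2427P, and the groups overlapped in CPM through L2427P replicate 1. Alas2, the first enzyme of haem synthesis in red cells, had footprints between 0 and 16.7 CPM, with more than 10 counts in 2 of 9 libraries, and Alas2 mRNA lay between 0 and 26.4 CPM, with more than 10 counts in 2 of 9 libraries. It overlaps Apex2. The haemoglobin genes Hba-a1, Hba-a2, Hbb-bs and Hbb-bt, which define red cells, had a count of 0 in each of the 17 libraries used. They are near-identical copies, and reads not aligned uniquely were left out of the counts, so this 0 does not show that red cell RNA is absent.

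**Figure D4:**
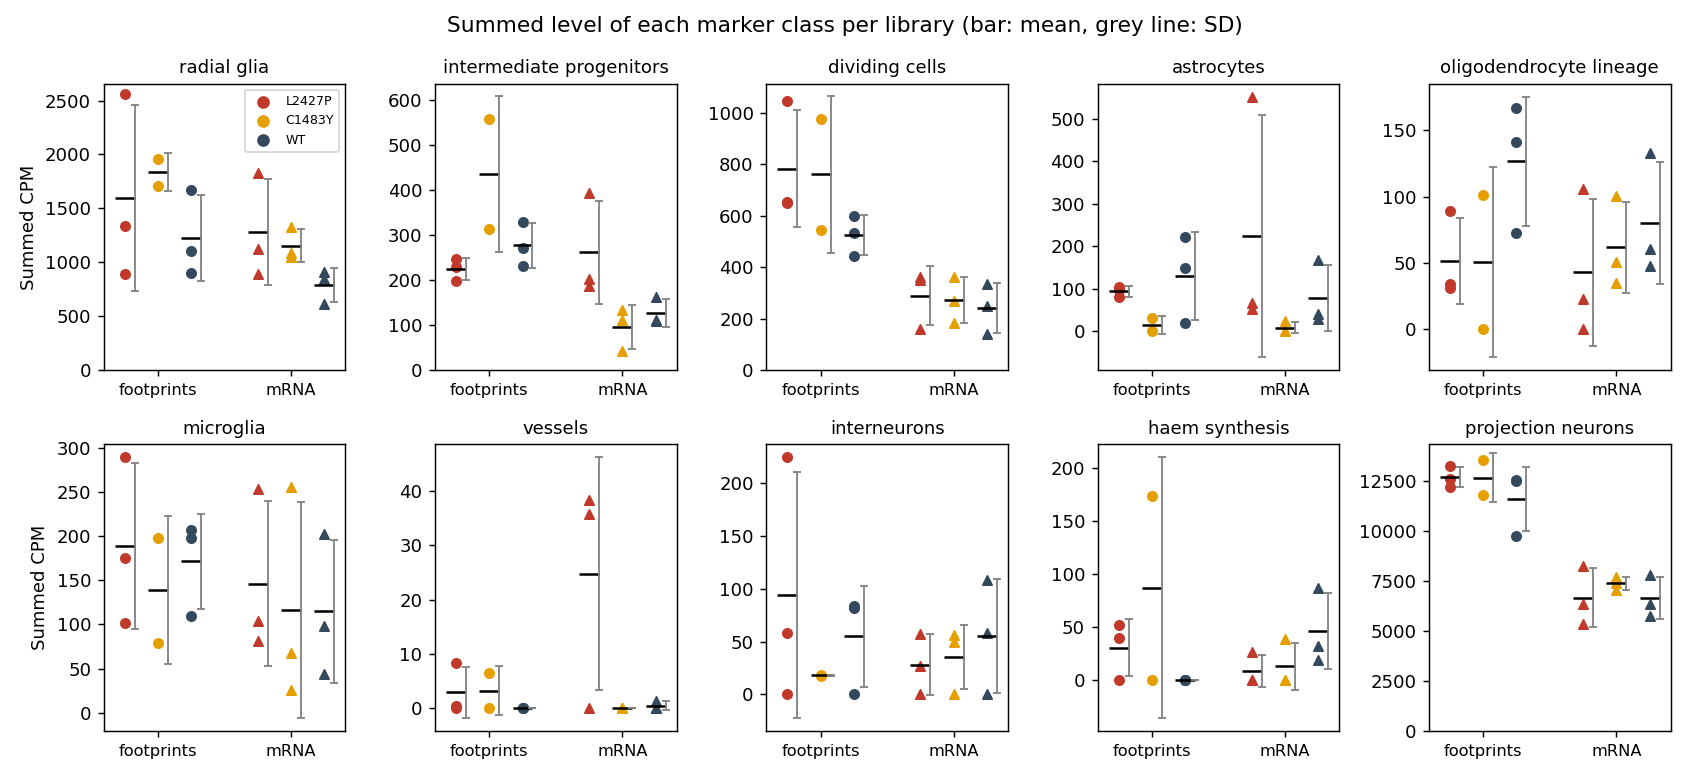
Summed CPM of the markers of each class and of the 16 projection neuron genes (vertical axes, separate scale per panel), 1 point per library, with footprints (circles) left and mRNA (triangles) right, and L2427P, C1483Y and WT from left to right. Black bars are means and grey lines the SD. The genotypes overlap in most panels, and the projection neuron genes and the dividing cell markers lie higher in footprints than in mRNA.

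The comparison of genotypes asks whether neurons with mutant MTOR carry more or less of these markers than neurons with WT MTOR. No marker passed the threshold in any of the 8 genotype comparisons by edgeR's quasi-likelihood test with Benjamini-Hochberg adjustment over all genes, with 28 markers tested in mRNA, 34 in footprints and 28 for translational efficiency, which is the ratio of footprints to mRNA. The background was low too, as 0.0% of 9558 genes were called in mRNA for L2427P against WT and for C1483Y against WT, and 0.0105% for L2427P against C1483Y. It was 0.0% of 10315 genes in the 3 footprint comparisons and 0.0% of 8876 genes in both comparisons of translational efficiency. Median standard errors over the markers were 3.40 to 4.74 on the log2 scale, so for many markers the error itself was several log2 units, while for Vim footprints and Fabp7 mRNA the standard errors given above were smaller.

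At an unadjusted p below 0.05, edgeR gave 1 marker in mRNA for L2427P against WT (background 2.42%), 1 for C1483Y against WT (1.59%) and 2 for L2427P against C1483Y (3.72%). In footprints it gave 2 for L2427P against WT (3.76%), 2 for C1483Y against WT (4.4%) and 1 for L2427P against C1483Y (1.27%). For translational efficiency it gave 3 for L2427P against WT (Aqp4, Cx3cr1 and Fech, background 4.22%) and 1 for C1483Y against WT (Cx3cr1, background 3.76%). The genes are Aldh1l1 and Fech in mRNA, and Csf1r, Fech, Olig1 and Cx3cr1 in footprints. Each of them combines libraries at or near 0 with libraries in which it was well covered.

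DESeq2's Wald test, with Benjamini-Hochberg adjustment, called some of the same genes. In mRNA it called Fech for L2427P against WT (1 of 28 markers, background 3.01%), Aldh1l1 for C1483Y against WT (1 of 28, background 1.8%) and both for L2427P against C1483Y (background 5.25%). In footprints it called Cx3cr1 and Olig1 for L2427P against WT (2 of 34, background 2.85%), Csf1r, Dlx1 and Fech for C1483Y against WT (3 of 34, background 7.77%) and Csf1r, Dlx1 and Dlx2 for L2427P against C1483Y (3 of 34, background 4.89%). For translational efficiency it called Cx3cr1, Fech and Olig1 for L2427P against WT (3 of 28, background 6.1%) and Aldh1l1, Cx3cr1 and Gfap for C1483Y against WT (3 of 28, background 9.07%). The share of the markers lay above the background in each of these comparisons, on 1 to 3 genes each, and that excess was not tested. Csf1r and Aldh1l1 were well covered in the C1483Y footprint library that the test left out. Dlx1 footprints were found in WT in replicate 3 alone and were at 0 in the C1483Y libraries used. Fech footprints were at 174 CPM in C1483Y replicate 1 and at 0.185 CPM in replicate 2.

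Without a test, the share of markers whose groups did not overlap lay above the background in some comparisons and below it in others. In footprints, 3 of 34 markers lay above WT in every L2427P library (Aqp4, Olig1 and Cx3cr1, 8.82% against 6.97% of all genes) and 1 below (Pdgfra, 2.94% against 1.65%). Likewise 3 of 34 lay above WT in both C1483Y libraries used (Vim, Neurog2 and Gad1, 8.82% against 6.61%) and 0 below (background 4.93%). For L2427P against C1483Y, 5 of 34 lay above (Aqp4, Aldh1l1, Olig1, Olig2 and Csf1r, 14.7% against 13.9%, though C1483Y replicate 3, not used there, was above every L2427P library for Aldh1l1 and within their range for Csf1r) and 1 below (Neurog2, 2.94% against 4.8%). In mRNA, Fech lay below WT in every L2427P library (3.57% of 28 against 6.25%) and 0 markers above (background 2.18%), while Fabp7 lay above WT in every C1483Y library (3.57% against 3.15%) and Aldh1l1 and Cx3cr1 below (7.14% against 4.67%). For L2427P against C1483Y in mRNA, Aldh1l1 lay above (3.57% against 2.0%) and Pdgfra below (3.57% against 4.88%).

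The median log2 difference of the markers had the sign of that of all genes in footprints and in mRNA, and the medians of markers and all genes went apart in translational efficiency. In footprints it was 0.64 for the markers and 0.32 for all genes for L2427P against WT, -0.44 and -0.16 for C1483Y against WT, and 1.27 and 0.55 for L2427P against C1483Y, with markers first. In mRNA it was -0.14 for the markers and -0.28 for all genes for L2427P against WT, -0.14 and -0.05 for C1483Y against WT, and -0.04 and -0.21 for L2427P against C1483Y. For translational efficiency it was 0.00 for the markers and 0.67 for all genes for L2427P against WT, and 0.66 and -0.13 for C1483Y against WT. These comparisons share groups, so their values are not independent. With DESeq2 size factors in place of TMM the median of all genes shifted by -0.19 for L2427P against WT and -0.15 for L2427P against C1483Y in footprints and by -0.23 for L2427P against WT in translational efficiency.

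Of the further markers of the same classes, 94 of 95 were in the files. Of these, 51 were tested in mRNA, 64 in footprints and 48 in both assays, and edgeR called 0 of them in any genotype comparison. At an unadjusted p below 0.05 it gave 0 to 1 of 51 in mRNA, against 1.59% to 3.72% of all genes. In footprints it gave 1 to 4 of 64, against 1.27% to 4.4%. For translational efficiency it gave 2 of 48 (4.17%) in each comparison, against 3.76% and 4.22%. DESeq2 called 1 to 2 of 51 in mRNA (1.96% to 3.92%, background 1.8% to 5.25%). It called 2 to 5 of 64 in footprints (3.12% to 7.81%, background 2.85% to 7.77%). For translational efficiency it called 3 to 4 of 48 (6.25% to 8.33%, background 6.1% to 9.07%). The DESeq2 shares were near the backgrounds.

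Footprints and mRNA were compared over all genotypes, with 28 markers tested among 8876 genes. By edgeR 0 markers were called, against a background of 2.79% of all genes (1.67% higher in footprints and 1.13% lower), and 6 had an unadjusted p below 0.05 (Vim, Slc1a3, Mki67 and Aldh1l1 higher in footprints, Hes5 and Olig1 lower, background 14.1%). DESeq2 called 9 of 28, against a background of 18.2%, namely Nes, Vim, Slc1a3, Eomes, Mki67, Aldh1l1 and Fech with higher values in footprints, and Hes5 and Olig1 with lower values. The exact permutation test asks the same question without a count model. It compares mean log2(CPM + 1) between footprint and mRNA libraries within each genotype, averages the differences over the genotypes and sets them against all 4000 arrangements of the assay labels, with a smallest possible two-sided p of 0.00025.

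By that test 6 of 28 markers passed an adjusted p of 0.05 over all genes, against a background of 7.17% of 8876 genes (3.06% higher in footprints and 4.1% lower). Nes footprints were higher by 2.99 on the log2(CPM + 1) scale (exact permutation adjusted p = 0.0207). Ccnd2 footprints were higher by 1.92 (exact permutation adjusted p = 0.024). Mki67 footprints were higher by 4.82 and Eomes footprints by 2.60 (exact permutation adjusted p = 0.0362 for each). Slc1a3 footprints were higher by 1.71 (exact permutation adjusted p = 0.0387). Hes5 footprints were lower, with a difference of -4.16 (exact permutation adjusted p = 0.0488), and with a pseudocount of 0.1 CPM in place of 1 CPM Hes5 was no longer called. The 5 higher genes are 2 radial glia genes, 1 intermediate progenitor gene and 2 cell cycle genes, and the median difference was 0.34 over the 28 markers and -0.36 over all genes tested. Vim had a difference of 1.37 with an exact permutation adjusted p = 0.109, and Fabp7 had -0.55 with an exact permutation adjusted p = 0.543.

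**Figure D5:**
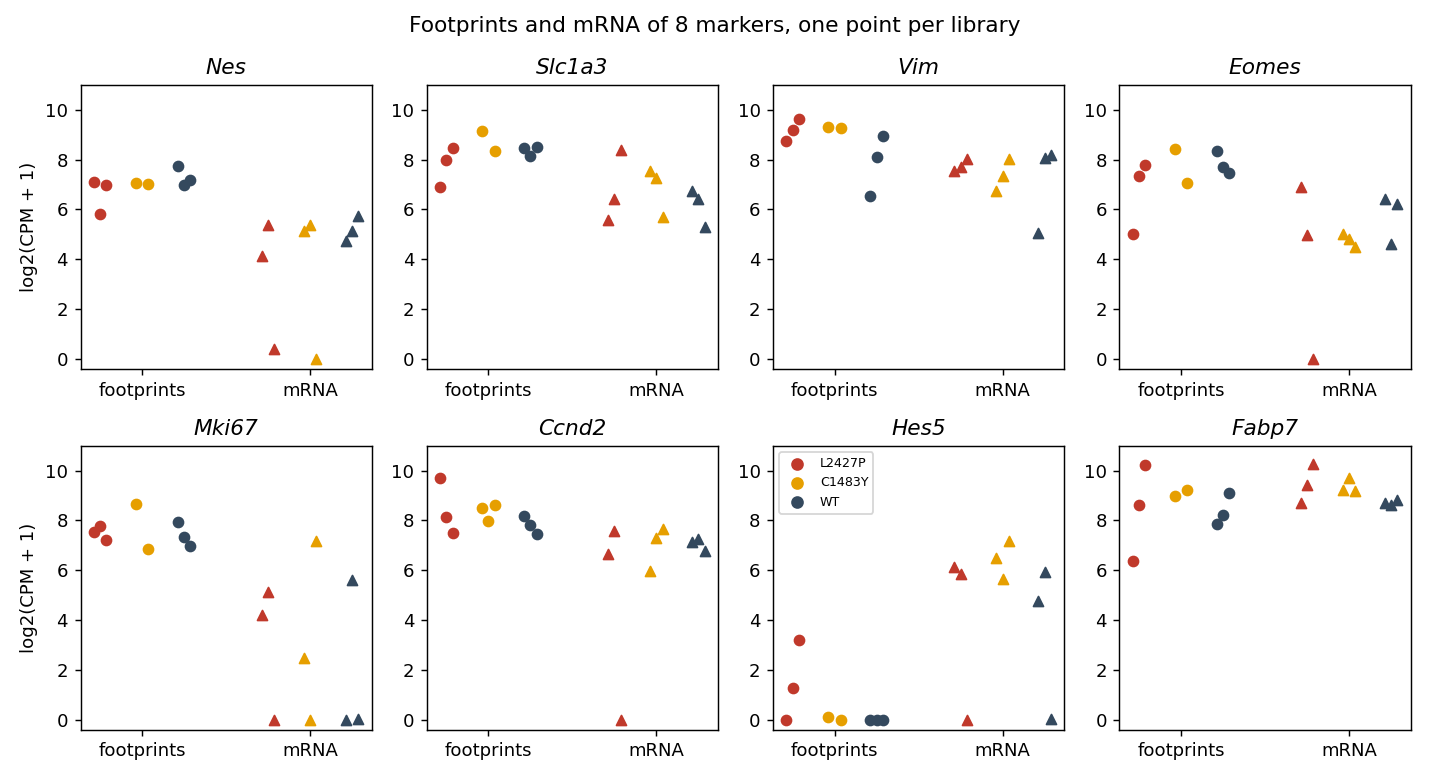
Level of 8 markers in each library, as log2(CPM + 1) on the vertical axis, with footprints (circles) left and mRNA (triangles) right and L2427P, C1483Y and WT from left to right within each. Nes footprints lie above all mRNA points, Mki67 and Eomes footprints lie above most, Hes5 runs the other way, and Fabp7 overlaps between the assays.

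These calls rest on few libraries. Leaving out 1 library at a time left 0 to 5 markers called, with 0 called without footprint library C1483Y replicate 1 and 0 without footprint library L2427P replicate 3. Over the 17 such tests Nes was called in 13, Ccnd2 in 11, Mki67 in 10, Eomes in 4, and Slc1a3 and Hes5 in 2 each. Fewer arrangements are possible with fewer libraries, so the smallest possible p is larger in those tests. The direction of the 6 differences was the same in all of them. The 2 mRNA libraries with most missing genes bear on the sizes. Without both, Nes was higher in footprints by 1.93 (exact permutation adjusted p = 0.0289), Ccnd2 by 1.24 (adjusted p = 0.0489), Mki67 by 4.96 (adjusted p = 0.0217) and Slc1a3 by 1.79 (adjusted p = 0.0289), each by the exact permutation test. Hes5 then differed by -4.70 (exact permutation adjusted p = 0.0217), and Eomes, at 1.90, no longer passed (exact permutation adjusted p = 0.0955).

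Other genes in the same cells also differed between the assays. Of the 48 further markers tested, 2 were called by the exact permutation test, both from the radial glia list, against 7.17% of all genes. By edgeR 0 were called, against 2.79%, and 6 had an unadjusted p below 0.05 (12.5%, background 14.1%). DESeq2 called 8 (16.7%, background 18.2%). These markers as a set thus held no larger share of calls than all genes. Ptprz1, a receptor phosphatase of radial glia, was higher in footprints by 3.29, and Hes6, a relative of Hes5 found in committed progenitors and young neurons, was lower in footprints with a difference of -3.55. Their exact permutation adjusted p were 0.00928 for Ptprz1 and 0.0135 for Hes6. Among the 14 projection neuron genes tested, Cux1, Neurod2 and Neurod6 were called higher in footprints by the exact permutation test and Stmn2 was called lower. By edgeR, 3 of the 14 were called higher in footprints, namely Dcx, Tbr1 and Tubb3. Footprints and mRNA were prepared in different ways, and differences of the preparation and of translation cannot be told apart within this design.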

How the data were processed

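Ribosome footprints and mRNA of sorted mouse cortical neurons were measured in 18 libraries. Per the submitters' processing notes the build was mm10 and the tools were HTSeq, TopHat2 2.1.1 and Bowtie 1.1.2. Annotation and strand setting: not given in the sources used here. The authors deposited raw counts per gene, whole numbers in 17 libraries. In C1483Y footprint replicate 3, 165 deposited values are not whole, so that file is read as estimated counts, rounded. Its windows of 100 genes matched the other footprint libraries without an offset in 42 of 42 windows up to position 5400 and in 0 of 148 after it. Totals of unassigned reads (reads outside genes, 8.43% to 14.7% of a footprint file where given and used and 7.06% to 14.1% of an mRNA file, and reads not aligned uniquely) and 27 names turned into dates were left out.

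Genes were kept by filterByExpr (minimum count 10, in both assays for joint fits), scaled by TMM and tested with edgeR 4.0.16 (R 4.3.3), robust quasi-likelihood, Benjamini-Hochberg adjustment at 0.05. The alternatives were DESeq2 1.42.0, its size factors, no filter, replicate blocks, left-out libraries, the displaced library as deposited, and WT replicate 3 counts divided by 3. The exact permutation test was chosen after the data were examined. Scripts were tested on simulated data. All 36 markers are named, other listed markers where they pass a test or serve as a check, and 1 result of the check genes is not reported here. The members and lists were chosen with earlier results of these data known. Coordinates are of RefSeq GRCm38.p6, the assembly of mm10.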

Additional observations from a re-analysis of the deposited data

How the results depend on the processing

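By the DESeq2 Wald test the numbers of markers called were 1 for C1483Y against WT, 1 for L2427P against WT and 2 for L2427P against C1483Y in mRNA, 3, 2 and 3 for the same comparisons in footprints, 3 and 3 for translational efficiency, and 9 for footprints against mRNA. The numbers of genes were 172, 288 and 502 in mRNA, 801, 294 and 504 in footprints, 805 and 541 for translational efficiency (C1483Y, then L2427P, against WT) and 1617 for footprints against mRNA, where edgeR called 0, 0 and 1, then 0, 0 and 0, then 0 and 0, and 248. DESeq2 called 552 of its 1617 genes higher in footprints and 1065 lower, against 148 and 100 by edgeR.

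With DESeq2 size factors the genes called were 3 for L2427P against WT and 0 for L2427P against C1483Y in mRNA, 1 for L2427P against C1483Y in footprints and 2 for C1483Y against WT in translational efficiency. Without a filter they were 2 for L2427P against C1483Y in footprints and 1 for L2427P against WT in translational efficiency, and 1 marker was called for footprints against mRNA, Dlx5, whose mRNA is at 0 throughout. Without mRNA libraries C1483Y replicate 3 and L2427P replicate 3 they were 1 for L2427P against WT in mRNA, 2 and 1 for C1483Y and L2427P against WT in translational efficiency, and 397 for footprints against mRNA, with 1 marker, Mki67. With footprint library C1483Y replicate 3 as deposited, footprints against mRNA gave 36 genes.

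The labels do not say whether libraries of one replicate number belong together. Deviations of same-numbered libraries from their group means correlated at -0.0623 to 0.0837, and 0 pairs passed 0.1. With 2 or 3 libraries per group and many genes missing from single libraries, this cannot show that they were unpaired. With the replicate block the genes called were 3 for L2427P against WT and 2 for L2427P against C1483Y in mRNA, 1 for L2427P against WT and 1 for L2427P against C1483Y in footprints, and with the library pair as a block 158 for footprints against mRNA. No marker was called with either block.

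Leaving out 1 library at a time gave 0 to 1 genes for C1483Y against WT, 0 to 3 for L2427P against WT and 0 to 3 for L2427P against C1483Y in mRNA. In footprints it gave 0 to 153, 0 to 1 and 0 to 125, with 153 and 125 when C1483Y was left with replicate 1 alone, which is then assumed to vary like the other groups. It gave 0 to 31 (C1483Y) and 0 to 4 (L2427P) for translational efficiency. Footprints against mRNA gave 188 to 382 genes and 0 to 1 markers, the 1 being Mki67 without mRNA library WT replicate 2. The exact permutation test gave 0 to 5 markers and 455 to 896 genes, against 6 and 636. No marker was called in a genotype comparison by edgeR in any of these fits. Aldh1l1 changed direction once, in footprints against mRNA, where its log2 difference by edgeR was 3.84 and ran from -0.15, without footprint library C1483Y replicate 2, to 4.53 when 1 library at a time was left out. DESeq2 size factors shifted the median of all genes by 0.15 in that comparison. Of the summed levels, 235 of the other values moved by less than 1 SD and 26 by more.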
